A study of Mus musculus with 6 samples.

Results

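The genes described here are 7 MAP kinase phosphatases of the dual-specificity phosphatase (DUSP) family, *Dusp1*, *Dusp5*, *Dusp6*, *Dusp7*, *Dusp8*, *Dusp10*, and *Dusp16*, out of 56923 genes in the count table. They were chosen by gene name and grouped by the kinase that each enzyme acts on, with 3 genes directed at ERK (*Dusp6*, *Dusp7*, and *Dusp5*), 3 directed at JNK or p38 (*Dusp8*, *Dusp10*, and *Dusp16*), and *Dusp1*, which acts on several kinases. The mRNA-Seq compared the hearts of 3 *Lztr1* R409C/+ mice with those of 3 WT mice, all 12 weeks old, with 1 library per mouse. LZTR1 is a substrate adaptor of a CUL3 ubiquitin ligase that acts on RAS proteins, and its mutations cause Noonan syndrome, a disorder of the RAS/MAPK pathway. The mutant mice carried the R409C substitution on 1 allele, made with CRISPR/Cas9 and backcrossed to C57BL/6J, and the methods of the study describe the samples as left ventricles (LVs) perfused with PBS from male mice. The allele was a germline knock-in, so that every cell type of the ventricle carried it, and the labels name no treatment of either genotype.

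MAP kinases are switched on by phosphorylation of a threonine and a tyrosine, and the phosphatases of this family remove both phosphates and so end the signal. Several of them are made in response to the kinase that they inactivate, which gives a negative feedback: *Dusp6* transcription is a common readout of ERK activity, and *Dusp1* is induced within minutes by growth factors, stress, and glucocorticoids. In the heart, ERK is tied to growth of cardiomyocytes, and JNK and p38 to stress and remodeling. The question that the comparison addresses is whether the mRNA of these phosphatases differed in a heart with a mutation of the RAS/MAPK pathway.

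Short stretches of the promoter windows are shown because 3 of the 7 genes carried, in the 250 bases before the RefSeq start site, letters known as binding motifs of factors that act in the early response to MAPK signals. The motifs searched on both strands were the cAMP response element TGACGTCA, the AP-1 site TGANTCA, the CArG box of the serum response factor, the TATA box TATAAA, and the ETS site CCGGAAGT. In each line, 30 bases are given from 5′ to 3′ on the strand of the gene, with the motif in capitals. The sequences are RefSeq promoter sequences, which matched GRCm39 at the positions given. In GENCODE vM39, annotated exons of any gene on either strand covered all 250 bases of the window for *Dusp5*, *Dusp6*, *Dusp7*, and *Dusp10*. They covered 247 bases for *Dusp1*, 195 for *Dusp8*, and 107 for *Dusp16*. The positions thus hold for the RefSeq start site, and other annotated transcripts cover much of these windows. The *Dusp5* stretch lies upstream of the annotated *Dusp5* gene, which starts at chr19:53517532. The exons over that stretch thus belong to another gene.
*Dusp5*, chr19:53517489-53517518, plus strand: aatacCCATATTTGGCCTTATATGGgcact
*Dusp8*, chr7:141649110-141649139, minus strand: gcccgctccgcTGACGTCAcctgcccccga
*Dusp8*, chr7:141649066-141649095, minus strand: ttggctgcaggTGACGTCAggggctttttc
*Dusp1*, chr17:26727571-26727600, minus strand: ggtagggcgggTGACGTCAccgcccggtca

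*Dusp5* had 2 CArG boxes that lay end to end, between bases -82 and -63 from the start site. *Dusp8* had 2 cAMP response elements, at -107 to -100 and at -63 to -56, and *Dusp1* had 1, at -143 to -136. The other 4 genes, *Dusp6*, *Dusp7*, *Dusp10*, and *Dusp16*, had no match to any of the 5 motifs in this window. Among 32851 promoter windows of the same length, 1.55% held the cAMP response element, 1.47% the CArG box, 6.75% the AP-1 site, 12.4% the TATA box, and 2.88% the ETS site. A match describes the letters in the window and was not tested as a binding site.

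Total counts lay between 66130887 and 72641124 per mouse, at which 3 counts corresponded to 0.0317 to 0.0541 CPM, the counts of a gene scaled to a common library total. The share of counts from mitochondrially encoded genes was 13.8% in WT replicate 3 and 45.4% in *Lztr1* R409C/+ replicate 1, against 29.7% to 37.3% in the other 4 mice, and CPM were scaled with TMM factors. *Lztr1* itself was at 24.2, 24.2, and 22.2 CPM in WT mice and 23.9, 27.9, and 25.3 CPM in *Lztr1* R409C/+ mice. Since the mutation is a substitution, its mRNA level does not check the genotype labels. The cardiomyocyte markers were present at a summed level of 30518 to 35247 CPM in WT and 20267 to 34838 CPM in mutant mice. In the bulk tissue of the ventricle, fewer cells of a type and less RNA per cell cannot be told apart.

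All 7 phosphatases were expressed and passed the filter on low counts, and 0 of them differed between the genotypes at an adjusted p under 0.05 (edgeR quasi-likelihood test, adjusted by Benjamini-Hochberg across 17212 genes). DESeq2 and edgeR's exact test also called 0 of the 7. Over all 17212 genes, the quasi-likelihood test called 7 (0.0407%), DESeq2 150, and the exact test 137, and 8853 had a fold change above 1. At an unadjusted p under 0.05, *Dusp8* was lower in *Lztr1* R409C/+ mice and no member was higher, where 2.86% of all genes were lower and 5.77% were higher. The 3 mutant mice lay apart from the 3 WT mice for *Dusp16* alone, which was lower, and 7.23% of all genes were lower and 8.30% higher without overlap. By direction, 3 members had a fold change above 1 and 4 below 1, and their median log2 fold change was -0.078, beside 0.012 over all genes tested. The 7 genes together summed to 184.5 to 198.4 CPM in WT and 158.8 to 222.5 CPM in mutant mice.

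**Figure D1:**
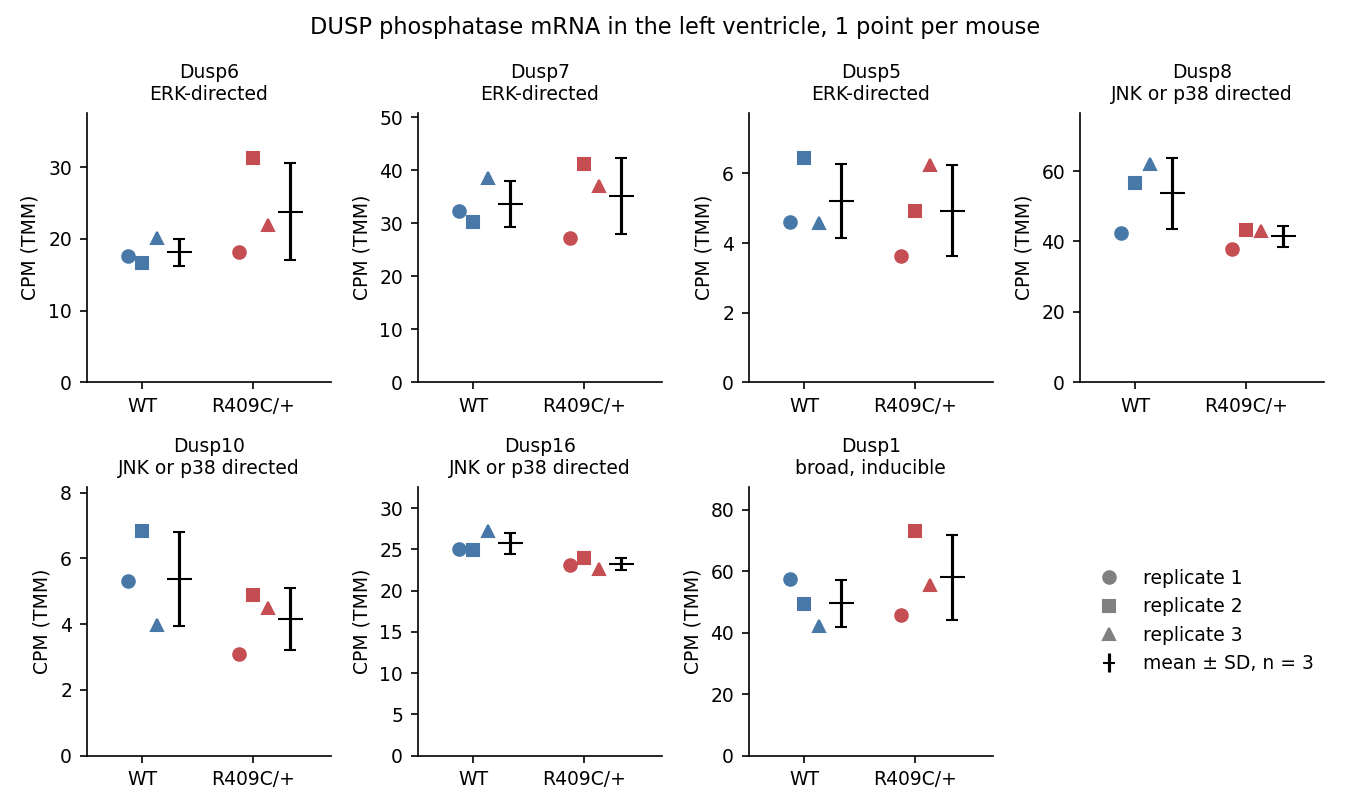
TMM-scaled CPM (vertical axes, linear and from 0) of the 7 phosphatases, with 1 point per mouse, shapes for the replicate number, and black bars for mean ± SD (n = 3) in WT and R409C/+ mice. The genotypes overlap in every panel except *Dusp16*, where the mutant mice lie between 22.6 and 24.0 CPM and the WT mice between 25.0 and 27.2 CPM.

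*Dusp6* (ENSMUSG00000019960.9, GRCm39 chr10:99086564-99103361), the cytoplasmic phosphatase selective for ERK, measured 17.6, 16.6, and 20.2 CPM in the WT mice, in replicate order here and for the genes that follow, and 18.1, 31.3, and 21.9 CPM in the mutant mice. Mutant replicate 2 stood above all other mice, whereas mutant replicate 1 lay below WT replicate 3, so that the genotypes overlapped. The means were 18.1 ± 1.86 and 23.8 ± 6.79 CPM (SD, n = 3 each), and the fitted fold change was 1.31 (95% interval, 0.964 to 1.79, log2 fold change 0.39 ± 0.20 SE, edgeR adjusted p = 0.624). Without mutant replicate 2, the log2 fold change was 0.14, and without WT replicate 3 and mutant replicate 1, which had the outlying mitochondrial shares, it was 0.64 (edgeR adjusted p = 0.419).

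*Dusp7* (ENSMUSG00000053716.10, chr9:106245143-106252923), a close relative of *Dusp6* that also acts on ERK in the cytoplasm, was at 32.2, 30.2, and 38.6 CPM in WT mice and 27.2, 41.1, and 37.1 CPM in mutant mice. The mutant mice spanned both the lowest and the highest of the 6 values. The fold change was 1.04 (95% interval, 0.792 to 1.38, edgeR adjusted p = 0.952). Its sign turned with the gene length correction and without WT replicate 2 or mutant replicate 2. With scaling by library size alone, the log2 fold change was -0.10, above the median of -0.14 over all genes under that scaling.

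*Dusp5* (ENSMUSG00000034765.7, chr19:53517532-53530862), the nuclear phosphatase of ERK, was at 4.62, 6.45, and 4.58 CPM in WT mice and 3.63, 4.92, and 6.24 CPM in mutant mice. Mutant replicate 1 was the lowest of the 6 mice, and the other 2 mutant mice lay within the WT range. The fold change was 0.947 (95% interval, 0.646 to 1.39, edgeR adjusted p = 0.957), and its sign turned without WT replicate 2, without mutant replicate 1, and without WT replicate 3 and mutant replicate 1 together.

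*Dusp8* (ENSMUSG00000037887.12, chr7:141633226-141649580), which inactivates JNK and p38 and is known for its expression in heart and brain, was at 42.4, 56.7, and 61.9 CPM in WT mice and 37.9, 43.3, and 43.1 CPM in *Lztr1* R409C/+ mice. The mutant mice lay close together, below WT replicates 2 and 3, but WT replicate 1 lay within their range. The means were 53.6 ± 10.1 and 41.4 ± 3.03 CPM (SD, n = 3 each), with a fold change of 0.772 (95% interval, 0.597 to 0.999) and a log2 fold change of -0.37 ± 0.17 (SE). The unadjusted p was 0.0489 and the edgeR adjusted p 0.574, so that the difference did not pass the threshold. The log2 fold change was -0.20 without WT replicate 3 and mutant replicate 1 and -0.52 without WT replicate 1.

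*Dusp10* (ENSMUSG00000039384.9, chr1:183745499-183807842), a JNK and p38 phosphatase with a role in immune cells, was at 5.31, 6.82, and 3.98 CPM in WT mice and 3.10, 4.88, and 4.48 CPM in mutant mice. WT replicate 3 lay below 2 of the mutant mice. The fold change was 0.776 (95% interval, 0.521 to 1.16, edgeR adjusted p = 0.743), as far below 1 as that of *Dusp8* but with a wider interval at a level of 172 to 439 counts per mouse. The log2 fold change went from -0.37 to -0.16 without WT replicate 2 and to -0.20 without mutant replicate 1.

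*Dusp16* (ENSMUSG00000030203.18, chr6:134692431-134784241), which acts mainly on JNK and shuttles between nucleus and cytoplasm, was at 25.1, 25.0, and 27.2 CPM in WT mice and 23.1, 24.0, and 22.6 CPM in mutant mice. All 3 mutant mice lay below all 3 WT mice (exact permutation test, two-sided, p = 0.1, below which a comparison of 3 and 3 mice cannot go). The fold change was only 0.902 (95% interval, 0.724 to 1.12, edgeR adjusted p = 0.818). *Dusp16* varied little between mice: the SD of log2 CPM within a genotype was 0.057, against a median of 0.24 over all genes, and 0.715% of the genes tested had a smaller one. For the other 6 members, this SD lay between 0.21 (*Dusp8*) and 0.33 (*Dusp10*).

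*Dusp1* (ENSMUSG00000024190.8, chr17:26724564-26781102), the nuclear and rapidly induced phosphatase of p38, JNK, and ERK, was at 57.3, 49.4, and 42.0 CPM in WT mice and 45.7, 72.9, and 55.6 CPM in mutant mice. As for *Dusp6*, mutant replicate 2 was the highest of the 6 mice, and the genotypes overlapped. The means were 49.6 ± 7.65 and 58.1 ± 13.8 CPM (SD, n = 3 each), with a fold change of 1.17 (95% interval, 0.875 to 1.57, edgeR adjusted p = 0.788). The log2 fold change was 0.23 with all mice, 0.025 without mutant replicate 2, 0.12 without WT replicate 3, 0.37 without mutant replicate 1, and 0.34 without WT replicate 1, and it was 0.086 with the gene length correction. The annotated span of *Dusp1* in GENCODE overlaps *Ergic1* on the opposite strand (1526 to 2703 counts per mouse), and the use of strand in counting is not given in the sources used here, so that reads in the overlap cannot be told apart. The genes annotated within the other 6 spans and listed in the count table had at most 51 counts in any mouse. That maximum was in a gene on the strand opposite *Dusp10*, and *Dusp10* itself had 172 to 439 counts per mouse. Further genes annotated over *Dusp10* were not in the count table.

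**Figure D2:**
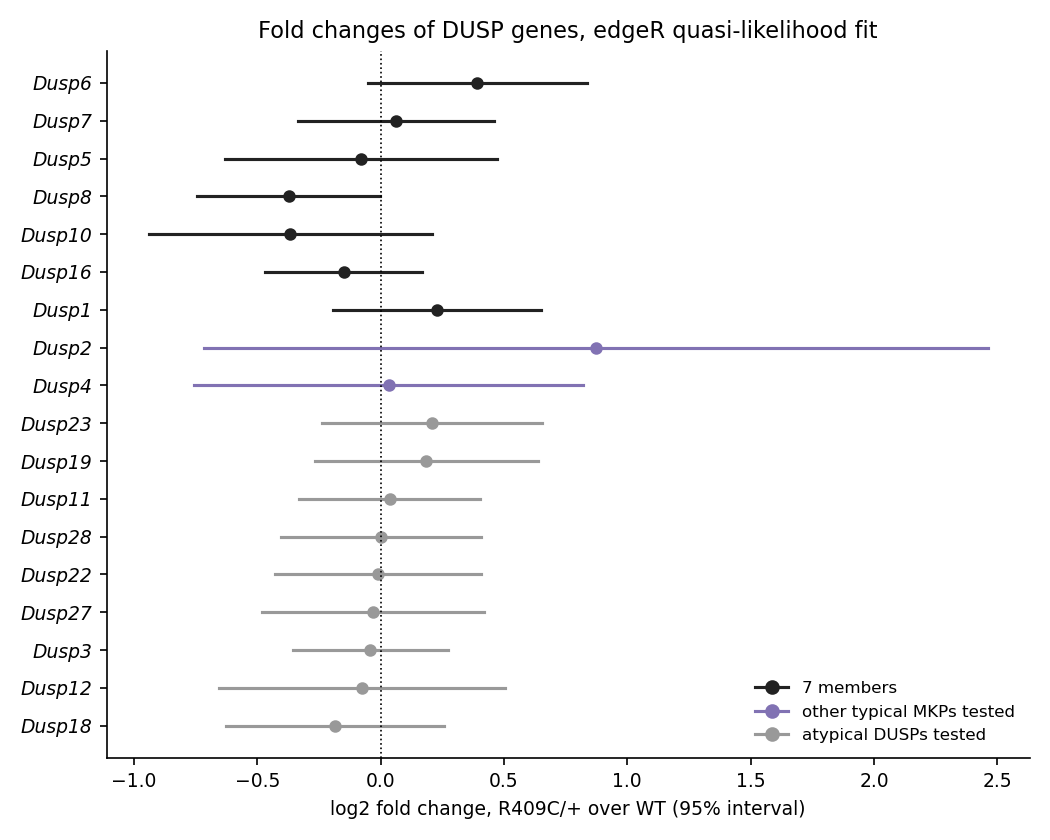
Log2 fold change of R409C/+ over WT (horizontal axis) with its 95% interval from the edgeR fit of 3 against 3 mice, for the 7 members (black), the other typical MAP kinase phosphatases tested (purple), and the atypical DUSPs tested (gray). Of the 7 members, the interval of *Dusp8* alone leaves out 0, with its upper end at -0.0020.

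Levels were compared between the 7 genes per kilobase of exon, as CPM per kb over the 6 mice. *Dusp1* was the most abundant, at a mean of 16.2 CPM per kb (12.6 to 21.9), followed by *Dusp7* at 8.39, *Dusp6* at 6.18, *Dusp8* at 5.82, *Dusp16* at 2.77, *Dusp5* at 2.04, and *Dusp10* at 0.783 CPM per kb. Each gene stood above the next one in 6 of 6 mice, except *Dusp6* over *Dusp8*, which held in 4 of 6, so that these neighbours were not separated. With the length of the GENCODE canonical transcript, a choice added after the data were seen, *Dusp8* came second at 9.81 CPM per kb, above *Dusp7* in 4 of 6 mice. *Dusp1* came first, and *Dusp16*, *Dusp5*, and *Dusp10* came last in this order, with each of the 3 lengths tried. The ventricle held mRNA for ERK-directed, JNK or p38 directed, and broad phosphatases, with the ERK-directed genes at 36.3% to 41.8% of the summed level per kb of the 7 genes, the JNK or p38 directed genes at 16.9% to 27.5%, and *Dusp1* at 30.7% to 42.2% across mice. These shares depended on the length used: with the canonical transcript, the ERK-directed genes were at 27.1% to 31.9% and the JNK or p38 directed genes at 19.8% to 32.4%, and the former lay above the latter in 4 of 6 mice rather than 6 of 6. All 3 shares overlapped between the genotypes with each length.

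The ratio of 2 genes within 1 library does not depend on the scaling of that library, and it was taken for *Dusp6* and *Dusp8*, the members with the smallest unadjusted p of their groups. The count ratio of *Dusp6* to *Dusp8* was 0.415, 0.293, and 0.326 in WT mice and 0.478, 0.723, and 0.508 in mutant mice. Every mutant mouse lay above every WT mouse, and the mean was 1.65 times higher. The pair was chosen with the direction of both genes known, so that the separation is a description without a test. Of all 21 pairs of members, 4 had ratios without overlap between the genotypes, which is read against the shares over all genes given after the pairs.

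The ratio of *Dusp6* to *Dusp7*, both ERK-directed, was 0.546, 0.549, and 0.523 in WT mice and 0.667, 0.761, and 0.590 in mutant mice. The WT mice differed little from each other, and each mutant mouse was higher. The ratio of *Dusp6* to *Dusp16* was 0.701, 0.664, and 0.742 in WT mice and 0.786, 1.30, and 0.968 in mutant mice, which was again higher in each mutant mouse. The fourth pair was *Dusp10* to *Dusp1*, at 0.0927, 0.138, and 0.0947 in WT mice and 0.0679, 0.0669, and 0.0807 in mutant mice, where the mutant mice were lower. As a background, the ratio of *Dusp6* to each other tested gene was higher without overlap in mutant mice for 17.5% of 17211 genes and lower for 1.34%. The ratio of *Dusp8* was lower for 19.5% and higher for 0.465%, and that of *Dusp16* was lower for 14.5% and higher for 2.50%. The ratio of *Dusp10* was lower for 14.4% and higher for 0.407%. Of the 6 pairs of each of these genes with the other members, 3 lay apart for *Dusp6* and 1 each for *Dusp8*, *Dusp16*, and *Dusp10*. The share over all genes was not taken for *Dusp7*, *Dusp5*, and *Dusp1*, so that no count is given for them.

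**Figure D3:**
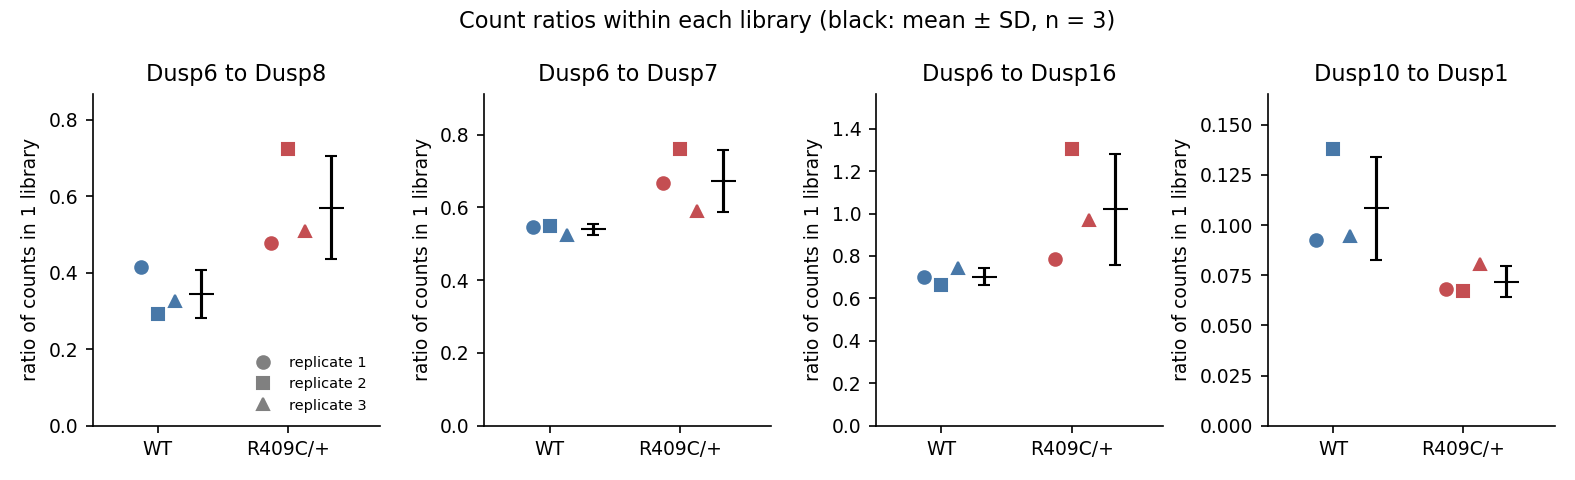
Ratio of the counts of 2 members within 1 library (vertical axes, linear and from 0), with 1 point per mouse, shapes for the replicate number, and black bars for mean ± SD (n = 3). The 4 pairs shown are those of the 21 whose genotypes do not overlap, among them *Dusp6* to *Dusp8*, at 0.293 to 0.415 in WT and 0.478 to 0.723 in R409C/+ mice.

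The log2 CPM of each member was centered over the 6 mice and averaged within each group. The mean of the 3 JNK or p38 directed genes was 0.024, 0.27, and 0.12 in WT mice and -0.30, -0.024, and -0.091 in mutant mice, without overlap and lower by 0.27 on average. This separation was read under TMM scaling only, and no share over other sets of genes was taken. The mean of the 3 ERK-directed genes was -0.13, -0.042, and 0.016 in WT mice and -0.30, 0.29, and 0.17 in mutant mice, with overlap. The mean difference of the ERK-directed genes was 0.10, and its sign turned without mutant replicate 2 (-0.018). It was 0.27 without mutant replicate 1 and 0.31 without WT replicate 3 and mutant replicate 1. With scaling by library size alone it was -0.029, above the median log2 fold change of -0.14 over all genes under that scaling. The ERK-directed mean minus the JNK or p38 directed mean was -0.15, -0.31, and -0.10 in WT mice and -0.0021, 0.31, and 0.26 in mutant mice. The genotypes lay apart on this difference, which is given without a test because the groups of genes were chosen with earlier results known.

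Of the other typical MAP kinase phosphatases, *Dusp2*, a nuclear enzyme of activated leukocytes, was at 0.363, 0.0621, and 0.581 CPM in WT mice and 0.235, 0.867, and 0.759 CPM in mutant mice. Its log2 fold change was 0.87 ± 0.73 (SE, edgeR adjusted p = 0.784). *Dusp4*, a nuclear enzyme induced by ERK, had means of 1.13 ± 0.13 and 1.15 ± 0.34 CPM (SD, n = 3 each, edgeR adjusted p = 0.987). *Dusp9*, an ERK phosphatase of the placenta, had 0 to 4 counts per mouse and was not tested.

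The 16 atypical DUSPs listed lack the kinase-binding domain of the typical enzymes, and 9 of them were tested. 4 had a fold change above 1 and 5 below 1, their median log2 fold change was -0.010, and 0 of them had an unadjusted p under 0.05 with edgeR, with 0 past the threshold with DESeq2 or the exact test. Over all genes tested, 8853 of 17212 had a fold change above 1, 5.77% were higher and 2.86% lower at an unadjusted p under 0.05, and DESeq2 called 150 and the exact test 137, which is also the background for the kinases. Of 5 tested phosphatases outside the family that act on MAP kinases, *Ptpn7*, a tyrosine phosphatase of hematopoietic cells that acts on ERK and p38, was at 0.605, 0.994, and 0.232 CPM in WT mice and 1.64, 2.70, and 1.72 CPM in mutant mice. It did not overlap between the genotypes, but its log2 fold change of 1.74 ± 0.48 (SE) did not pass the edgeR threshold (adjusted p = 0.290), whereas DESeq2 called it (adjusted p = 0.0466). *Ppm1b*, a serine/threonine phosphatase, did not overlap either but was lower, at 113.5 ± 11.4 CPM in WT and 95.9 ± 5.42 CPM in mutant mice (SD, n = 3 each, edgeR adjusted p = 0.692). Over all genes, 8.30% were higher and 7.23% lower without overlap.

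The substrates of the phosphatases showed no member past the threshold either. Among 21 tested MAP kinases and their upstream kinases, 8 had a fold change above 1 and 13 below 1, with 0 at an unadjusted p under 0.05 (edgeR) and 0 past the threshold with DESeq2 or the exact test. The smallest p belonged to *Mapk4*, an atypical MAP kinase, at 5.57, 5.36, and 7.81 CPM in WT mice and 3.61, 4.66, and 5.20 CPM in mutant mice (edgeR adjusted p = 0.601). *Mapk8*, which encodes JNK1, was at 31.5, 36.0, and 32.0 CPM in WT mice and 29.6, 30.5, and 23.2 CPM in mutant mice (edgeR adjusted p = 0.697). Both were lower in every mutant mouse than in every WT mouse, as were 2 of the 21 kinases in all and 7.23% of all genes.

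Genes that are induced early by the same signals as *Dusp1* were read beside it. Of 24 tested, 18 had a fold change above 1 and 6 below 1, with a median log2 fold change of 0.36, and 6 were higher at an unadjusted p under 0.05, of which edgeR called 0, DESeq2 2, and the exact test 2. Of all genes tested, 8853 of 17212 had a fold change above 1 and 5.77% were higher at an unadjusted p under 0.05, and DESeq2 called 150 genes and the exact test 137, which is the background for this list and for the feedback and glucocorticoid lists. *Fos*, a subunit of AP-1, was at 1.01, 1.23, and 1.35 CPM in WT mice and 1.48, 8.18, and 3.88 CPM in mutant mice (edgeR adjusted p = 0.274, DESeq2 adjusted p = 0.00808). *Egr1*, a zinc finger factor downstream of ERK, was at 8.22, 6.90, and 5.07 CPM in WT mice and 8.25, 23.4, and 16.8 CPM in mutant mice (edgeR adjusted p = 0.274, DESeq2 adjusted p = 0.0141). In both genes, mutant replicate 2 was the highest and replicate 1 the lowest of the mutant mice. *Dusp1*, *Dusp6*, *Dusp7*, *Dusp8*, and *Dusp10* stood in the same order. Some other genes of the early list were instead highest in mutant replicate 3, and others shared this order. The share of all genes in this order was not taken, so that it is a description only. The part of this shared order in the values of the members was not tested.

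Of 11 tested genes of ERK feedback and late ERK targets, a list to which *Dusp6* belongs by function, 9 had a fold change above 1 and 2 below 1, and 3 were higher at an unadjusted p under 0.05, with 0 past the threshold in edgeR, DESeq2, or the exact test. *Ccnd1*, which encodes cyclin D1, was at 57.7, 71.9, and 69.5 CPM in WT mice and 82.9, 89.3, and 102.0 CPM in mutant mice (edgeR adjusted p = 0.456). *Spred3*, an inhibitor of the RAS/RAF step, was at 0.409, 0.684, and 0.369 CPM in WT mice and 1.23, 0.839, and 1.16 CPM in mutant mice (edgeR adjusted p = 0.499). Of 11 genes that respond to glucocorticoids, as *Dusp1* does, 9 had a fold change above 1 and 2 below 1, with 1 at an unadjusted p under 0.05 and 0 past the threshold in edgeR, DESeq2, or the exact test. *Mt2*, a metallothionein, was at 6.86, 7.22, and 4.43 CPM in WT mice and 10.1, 29.8, and 9.31 CPM in mutant mice (edgeR adjusted p = 0.454). *Lcn2*, which encodes lipocalin, had means of 0.852 ± 0.30 and 1.30 ± 0.13 CPM (SD, n = 3 each, edgeR adjusted p = 0.697).

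Markers of other cell types were read as well. The 7 macrophage markers summed to 88.9 to 92.1 CPM in WT and 158.9 to 176.5 CPM in mutant mice, with 7 of 7 higher at an unadjusted p under 0.05 and 1 past the edgeR threshold, where DESeq2 called 3. Over all genes, 5.77% were higher and 2.86% lower at an unadjusted p under 0.05, edgeR called 7 of 17212, and DESeq2 called 150. *C1qb*, a complement subunit made by macrophages, was the one past it, with a mean of 18.5 ± 1.89 CPM in WT and 41.2 ± 2.66 CPM in mutant mice (SD, n = 3 each, edgeR adjusted p = 0.0241), and *Tyrobp*, an adaptor of myeloid receptors, had a log2 fold change of 1.64. The 5 erythroid markers summed to 579 to 1479 CPM in WT and 1042 to 2625 CPM in mutant mice, with overlap, and 5 of 5 had a fold change above 1, 3 were higher at an unadjusted p under 0.05, and DESeq2 called 1. Of the 5 smooth muscle and pericyte markers, 4 had a fold change below 1, and 2 were lower at an unadjusted p under 0.05. A fold change above 1 was found for 5 of 6 endothelial and 4 of 6 fibroblast markers, of which 1 and 2, respectively, were higher at an unadjusted p under 0.05. The part of these markers in the values of the 7 phosphatases was not tested.

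Across 17 other fits, the fold changes of *Dusp6* and *Dusp1* stayed above 1 and those of *Dusp8*, *Dusp10*, and *Dusp16* below 1, while those of *Dusp7* and *Dusp5* took both signs. The log2 fold change of *Dusp6* ranged from 0.14 to 0.64, with an unadjusted p under 0.05 in 2 fits, and that of *Dusp8* from -0.55 to -0.20, with an unadjusted p under 0.05 in 6 fits. The lowest adjusted p of any member in any of these fits was 0.419, for *Dusp6* without WT replicate 3 and mutant replicate 1. Scaling by library size alone shifted the median log2 fold change of all genes to -0.14, so that the fold changes under it are read against that shift.

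**Figure D4:**
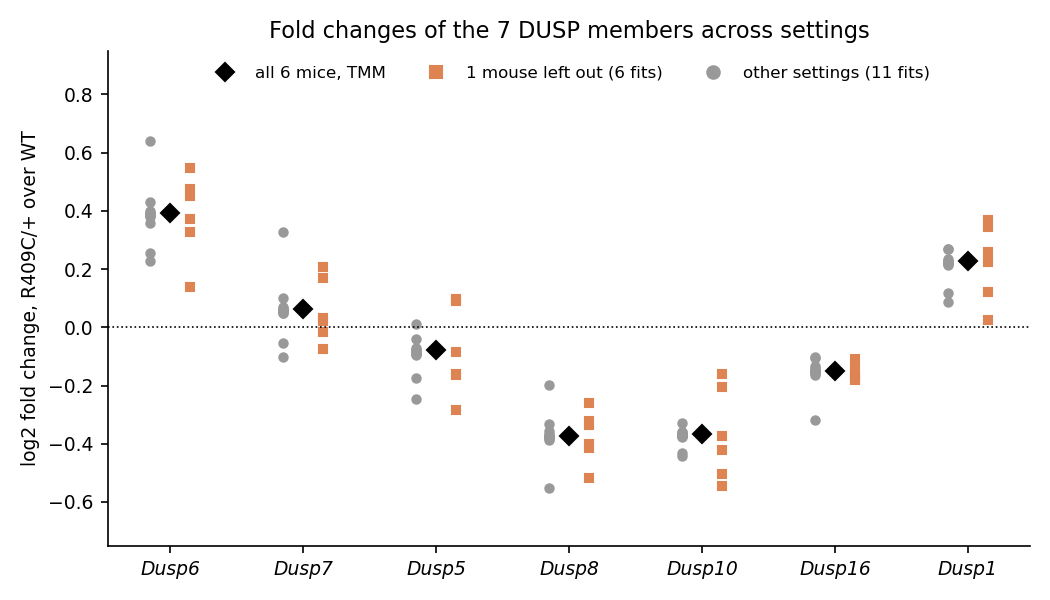
Log2 fold change of R409C/+ over WT (vertical axis) for the 7 members, with all 6 mice and TMM scaling (black), with 1 mouse left out in each of 6 fits (orange), and in 11 fits with other settings (gray). *Dusp8*, *Dusp10*, and *Dusp16* stay below 0 and *Dusp6* and *Dusp1* above 0, whereas *Dusp7* and *Dusp5* lie on both sides.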

How the data were processed

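RNA from the hearts of 3 *Lztr1* R409C/+ and 3 WT mice was sequenced with 1 library per mouse. Per the labels and the methods of the study, reads were processed with Trim Galore, HISAT2 against GRCm39, and StringTie, with rRNA excluded. The authors deposited whole-number counts per gene without normalization. The annotation release, the step from StringTie to counts, and the strandedness are not given in the sources used here. A second deposited table holds the authors' own edgeR comparison (fold changes, mean levels, and p-values), of which only gene names were used. Gene identifiers were matched to GENCODE vM39 on GRCm39 (56236 of 56923), and RefSeq promoter windows were found for 7 of 7 members.

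The analysis used edgeR 4.0.16 (R 4.3.3): filterByExpr, which left 17212 genes, TMM scaling, and the robust quasi-likelihood test, two-sided, with Benjamini-Hochberg adjustment over all genes at a threshold of 0.05. Standard errors are the log2 fold change over the square root of F. CPM are TMM-scaled, with 0.5 CPM added before logs. Depth was 66130887 to 72641124 counts per mouse, and floors cover counting error only. Each library came from a separate mouse. The fit was tested on simulated data (17212 genes), where 91 of 200 genes changed by 1 on the log2 scale and 8 unchanged genes were called.

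The members and lists were chosen with earlier results of these data known. Named are the 7 members, *Dusp2*, *Dusp4*, *Dusp9*, *Lztr1*, the 2 genes with the smallest p of each other list and any past the threshold (with the other phosphatases, the kinases, and the cell type markers each taken as 1 list), and the 3 genes most correlated with *Dusp1*, *Dusp6*, and *Dusp8*. *Ergic1* was named after its values were seen. The alternatives were other scalings (DESeq2's size factors, library size, upper quartile), DESeq2 1.42.0 and edgeR's exact test, other filters, a gene length correction, a replicate block, other thresholds, the omission of each mouse, and other gene lengths for levels.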

Additional observations from a re-analysis of the deposited data

How the results depend on the processing

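Of the 7 phosphatases, 0 passed the adjusted threshold under any alternative. With all 6 mice and TMM scaling, 1 (*Dusp8*, log2 fold change -0.37) had an unadjusted p under 0.05 (edgeR quasi-likelihood test). *Dusp6* also had one without mutant replicate 1, and without WT replicate 3 and mutant replicate 1. With library size alone, the log2 fold change of *Dusp7* was -0.10, above the median of -0.14 over all genes. The sign of *Dusp7* turned with the gene length correction (-0.053), and without WT replicate 2 (-0.015) or mutant replicate 2 (-0.074, the lowest with 1 mouse left out), and it was highest without WT replicate 3 and mutant replicate 1 (0.33). That of *Dusp5* turned without WT replicate 2 (0.098), without mutant replicate 1 (0.090), and without WT replicate 3 and mutant replicate 1 (0.013), and it was lowest without mutant replicate 3 (-0.28). The *Dusp6* to *Dusp8* ratio of means lay between 1.43 and 1.84 with 1 mouse left out. Over all genes, the count of 7 past the threshold went to 21 with library size, 150 with DESeq2, 137 with the exact test, 20 without a filter, 2 with the length correction, 16 at a false discovery rate of 0.1, 1486 at an unadjusted p under 0.05, 1 without WT replicate 3 and mutant replicate 1, and 2 to 4 with 1 mouse left out. The genes induced early had 1 past the threshold with library size, 2 with DESeq2, 2 with the exact test, and 6 at an unadjusted p under 0.05. The other phosphatases had 1 with DESeq2 and 1 at an unadjusted p, where the feedback genes had 3 and the glucocorticoid list 1. The cause of these changes was not tested. Same-numbered mice did not deviate together (correlations of -0.031, 0.057, and -0.099), and not every mouse correlated best with its own number. With the replicate block, 1 gene passed over all genes and 0 of the members. In simulated data of this depth and number of mice, 91 of 200 genes changed by 1 on the log2 scale were called, and the estimates of the members were all below that size.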

Other observations

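The genes whose log2 CPM over the 6 mice was most like that of 3 of the members were sought among 13214 genes with a mean of at least 1 CPM. The closest to *Dusp1* were *Kit* (Pearson's r = 0.989), a receptor tyrosine kinase, *Adamts12* (0.987), a secreted metalloprotease, and *Slc25a22* (0.976), a mitochondrial glutamate carrier. The closest to *Dusp6* were *Tns3* (0.990), a focal adhesion protein, *Sgk1* (0.985), a kinase induced by serum and glucocorticoids, and *Gm4841* (0.975). The closest to *Dusp8* were *Rtf1* (0.996), a subunit of the PAF1 complex of transcription elongation, *Wnt5a* (0.986), a WNT ligand, and *Lactb* (0.984), a mitochondrial protease. With 6 points that share their libraries and scaling, and with 11, 17, and 37 genes above 0.95 for *Dusp1*, *Dusp6*, and *Dusp8*, these are the highest of many values and are given as a description.

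Between the genotypes, the log2 fold change of R409C/+ over WT was 0.17 for *Kit*, 0.25 for *Sgk1*, which belongs to the glucocorticoid list, and -0.19 for *Rtf1*. It was 1.05 for *Gm4841*.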
